A study of Homo sapiens with 4 samples.

Results

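The regions described here are the called H3K9me3 peaks on the arms of human chromosome 3, outside the centromere and the stretches beside it. They were chosen by measured values, since only places where the authors' peak caller reported a peak are listed. A peak was a member when its summit lay below 86500000 or above 98900000 on chromosome 3 of hg38. The rule took 263 of the 4950 peaks of the series, 36 of 1165 in the NC list and 227 of 3785 in the OE-KDM4A list. Peaks with the same start and end in 1 list were counted once. The short-arm side is called 3p below and spans 86.5 Mb. The long-arm side is called distal 3q and spans 99.3 Mb up to the last annotated gene end.

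ChIP-seq for H3K9me3 was done in Ishikawa, a long-used line from a human endometrial cancer. The label gives NC cells no treatment and names the treatment of the other cells OE-KDM4A, taken here as overexpression of KDM4A. How the overexpression was made, and whether the cells were a clone or a pool, is not stated in the labels. Each of the 2 conditions had 1 ChIP and 1 input library from formaldehyde-fixed, sonicated chromatin. No difference between conditions therefore has a replicate check, and no test between them was made. Intervals below are exact, at 95%, and allow for counting error alone. The depth of the libraries is unknown.

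H3K9me3 is a histone mark of silenced heterochromatin. It is placed by the SUV39H and SETDB1 methyltransferases, read by HP1 proteins, and known for covering satellite repeats, transposons and clusters of zinc finger genes. KDM4A is a demethylase that removes methyl groups from trimethylated H3K9 and H3K36. Promoters of widely expressed genes often lie in CpG islands, stretches rich in the dinucleotide CG, and such promoters usually lack H3K9me3. The distal long arm of chromosome 3 carries PIK3CA, SOX2 and TP63 and is often gained in squamous and other carcinomas.

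Sequences upstream of 4 genes are shown because peaks were called inside these genes, close to their starts: NC peaks at SIAH2, C3orf80 and DIPK2A, and an OE-KDM4A peak at DLG1. Each is the 250 bases before the RefSeq start on the gene's strand (GRCh38.p14), written 5′ to 3′ with every CG dinucleotide in capitals. None of the 4 windows overlaps the peak beside it.

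SIAH2, chr3:150763170-150763419, minus strand: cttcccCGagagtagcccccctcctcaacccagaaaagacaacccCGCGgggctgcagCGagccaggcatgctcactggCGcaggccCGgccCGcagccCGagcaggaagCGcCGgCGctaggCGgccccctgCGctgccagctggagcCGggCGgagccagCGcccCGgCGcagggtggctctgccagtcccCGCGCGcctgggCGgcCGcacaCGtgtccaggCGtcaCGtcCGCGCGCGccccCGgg
C3orf80, chr3:160225172-160225421, plus strand: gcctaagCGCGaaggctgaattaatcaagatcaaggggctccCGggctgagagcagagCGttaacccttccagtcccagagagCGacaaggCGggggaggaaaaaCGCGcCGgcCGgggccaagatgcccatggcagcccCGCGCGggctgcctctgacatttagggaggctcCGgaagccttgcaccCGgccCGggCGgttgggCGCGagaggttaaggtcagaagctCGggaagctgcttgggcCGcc
DIPK2A, chr3:143971548-143971797, plus strand: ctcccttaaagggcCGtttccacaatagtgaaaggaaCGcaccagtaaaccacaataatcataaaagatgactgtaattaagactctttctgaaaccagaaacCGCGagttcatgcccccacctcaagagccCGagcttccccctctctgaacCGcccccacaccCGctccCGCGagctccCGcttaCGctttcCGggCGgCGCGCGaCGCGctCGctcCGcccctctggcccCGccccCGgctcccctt
DLG1, chr3:197299322-197299571, minus strand: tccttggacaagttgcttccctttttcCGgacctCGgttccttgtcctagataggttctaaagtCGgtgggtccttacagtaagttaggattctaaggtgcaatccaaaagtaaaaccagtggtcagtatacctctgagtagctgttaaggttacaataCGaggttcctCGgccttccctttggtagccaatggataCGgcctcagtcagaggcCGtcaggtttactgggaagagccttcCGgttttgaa

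The windows held 31 CG dinucleotides at SIAH2, 21 at C3orf80, 22 at DIPK2A and 8 at the DLG1 start nearest to the peak. The other DLG1 starts within 1 kb of that peak had 22, 11 and 6. Windows not printed here held 25 at FOXL2, which also had an NC peak inside its start, and 32 at C3orf70, which had an OE-KDM4A peak there. Over the 1332 windows of the same length before starts of protein-coding genes on the arms, the median was 16 (quartiles 5 and 25), and 64.3% held at least 10. CG reads the same on both strands, so each was counted once. Of 7 protein-coding genes with an NC peak at an end, 4 had a start within 1 kb of the peak in the promoter table: SIAH2, C3orf80, DIPK2A and FOXL2. For DIPK2A the table lists a further start downstream, and the NC peak reached 35 bases into that start's window. The peaks themselves lay outside the printed windows, so the counts describe the neighbouring sequence.

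The OE-KDM4A list held 6.31 times as many arm peaks as the NC list (interval 4.42 to 9.23). On 3p, 15 NC peaks stood against 60 OE-KDM4A peaks, a ratio of 4.0 (2.24 to 7.59). On distal 3q, 21 NC peaks stood against 167 OE-KDM4A peaks, a ratio of 7.95 (5.04 to 13.2). The arms of the other 22 chromosomes held 580 NC and 2187 OE-KDM4A peaks, a ratio of 3.77 (3.44 to 4.14). They were taken as the sequence more than 5 Mb from the longest gene-free stretch of each chromosome. That cut may leave in sequence beside some centromeres. The interval for the other chromosomes lies within that for 3p and below that for distal 3q, while the intervals for 3p and distal 3q overlap.

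Per megabase, OE-KDM4A peaks numbered 0.694 on 3p (0.529 to 0.893) and 1.68 on distal 3q (1.44 to 1.96). Distal 3q was thus 2.42 times as dense as 3p in that list (1.79 to 3.31). NC peaks numbered 0.173 per Mb on 3p and 0.211 on distal 3q, a ratio of 1.22 with an interval from 0.599 to 2.54 that spans equal density. Set beside the arms of the other chromosomes, OE-KDM4A density was 0.783 times theirs on 3p (0.595 to 1.01) and 1.90 times theirs on distal 3q (1.61 to 2.22). With both arms joined, chromosome 3 held 1.22 OE-KDM4A peaks per Mb and ranked 3 of 23, after chromosome 12 with 2.43 and chromosome 21 with 1.44. On chromosome 21, 38 of the 53 OE-KDM4A peaks lay between 10 and 11 Mb, so its place rests on that bin. It ranked 14 of 23 in the NC list, with 0.194 per Mb.

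**Figure D1:**
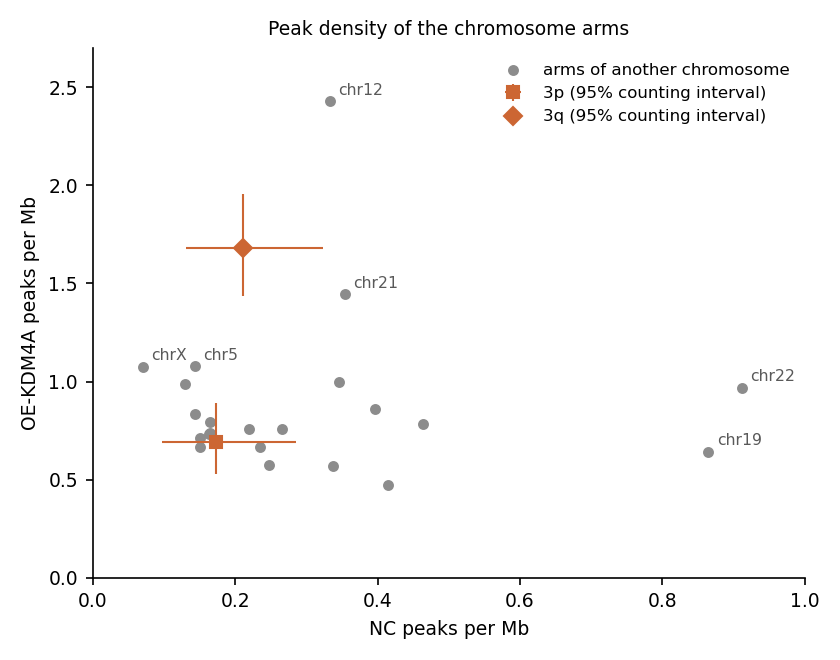
Peaks per Mb on the arms of each chromosome, NC on the horizontal and OE-KDM4A on the vertical axis, with 3p and distal 3q marked in orange and their bars giving 95% counting intervals. Distal 3q sits at 1.68 OE-KDM4A peaks per Mb and 3p at 0.694, against 0.211 and 0.173 in the NC list.

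The arms were next counted in bins of 1 Mb. On 3p, 45 of 86 full bins had no OE-KDM4A peak, and on distal 3q 31 of 99 had none. NC peaks were missing from 72 and 82 of these bins. At least 3 OE-KDM4A peaks were counted in 23 of the 185 bins, 2 on 3p and 21 on distal 3q. The same count was reached by 7.84% of the 1-Mb bins of all chromosome arms. The highest bin on 3p held 7 OE-KDM4A peaks and ran from 75 to 76 Mb. The highest on distal 3q held 8 and ran from 178 to 179 Mb. Distal 3q was not dense throughout: it also held the longest run of bins without an OE-KDM4A peak, 7 bins against 5 on 3p.

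**Figure D2:**
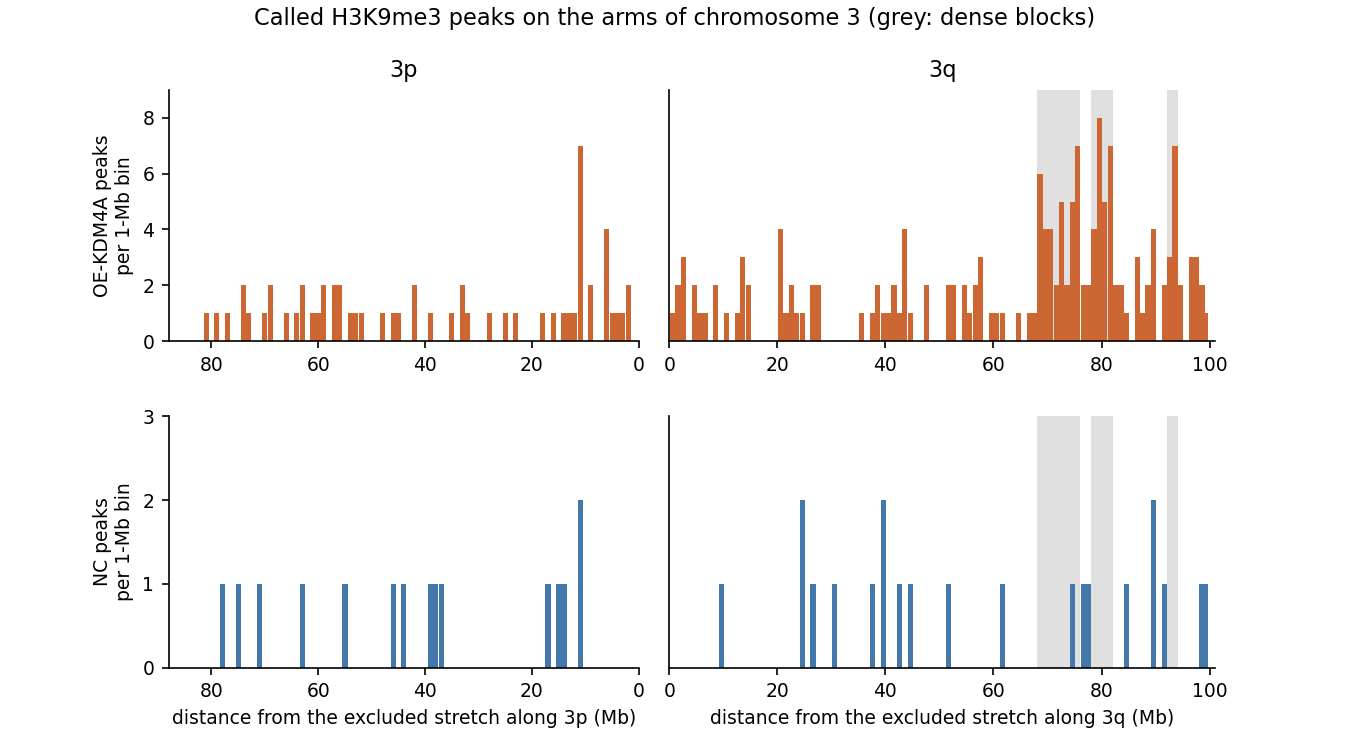
Number of called peaks in each 1-Mb bin along 3p and distal 3q, OE-KDM4A above and NC below, with the dense blocks shaded. The OE-KDM4A bins reach 7 on 3p and 8 on distal 3q, and no NC bin holds more than 2.

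Bins with many OE-KDM4A peaks stood side by side. A dense block was defined as a run of bins with at least 3 OE-KDM4A peaks each, allowing 1 thinner bin between them, with at least 10 peaks in all. There were 3 such blocks, all on distal 3q. They held 69 of the 227 OE-KDM4A peaks, 30.4% (24.5% to 36.8%), and 1 of 36 NC peaks, 2.78% (0.0703% to 14.5%). Both shares depend on the rule: with at least 2 peaks per dense bin they were 48.9% and 22.2%, with 2 thinner bins bridged 41.0% and 16.7%, and with chains of summits at most 0.5 Mb apart 11.9% and 0%. The blocks cover 14.0 of the 185.8 Mb of the arms, so few of the 36 NC peaks would lie there at even density. The low NC share is therefore not read as a depletion. The blocks were drawn from the OE-KDM4A counts, so their OE-KDM4A density is a description. On the other chromosomes the same rule placed 18.2% of OE-KDM4A arm peaks in blocks. That share includes 38 peaks from 10 to 11 Mb on chromosome 21 and 20 from 16 to 19 Mb on chromosome 22. Chromosome 12 had 80.1% of its peaks in 4 blocks, and chromosome 5 had 1 block of 34 peaks.

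The block from 167 to 175 Mb held 35 OE-KDM4A peaks, 4.38 per Mb, and 1 NC peak in NLGN1. Its first summit, at 167124675, lay in no gene and 53.7 kb from ZBBX, after 805 kb without a summit. Its last, at 174831220, lay in NAALADL2, and the next summit followed 1078 kb later. The block from 177 to 181 Mb held 24 OE-KDM4A peaks, 6.0 per Mb, and no NC peak. It began at 177308757 in LINC00501, a long noncoding RNA gene, 107 kb from TBL1XR1. It ended at 180893808 in LOC124909466, 18.9 kb from FXR1, which encodes an RNA-binding protein of the fragile X family. The block from 191 to 193 Mb held 10 OE-KDM4A peaks, 5.00 per Mb, and no NC peak. It ran from 27.3 kb beside OSTN, which encodes the secreted peptide osteocrin, to 42.6 kb beside MB21D2.

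A segmentation of the bins by OE-KDM4A counts gave a simpler picture with 3 levels on distal 3q. The levels and their edges were placed by these same counts, so differences in OE-KDM4A density between them are descriptions, and the intervals do not allow for that choice. From 98.9 to 167 Mb there were 66 peaks, 0.969 per Mb (0.750 to 1.23). From 167 to 181 Mb there were 63 peaks, 4.50 per Mb (3.46 to 5.76). From 181 Mb to the end of the arm there were 38 peaks, 2.21 per Mb (1.56 to 3.03). The nearest level to 3p was that below 167 Mb, at 1.40 times the density of 3p (0.970 to 2.02). NC peaks in the 3 levels numbered 12, 3 and 6, or 0.176, 0.214 and 0.348 per Mb. Their ratio across 167 Mb was 1.22 (0.220 to 4.51), too wide to tell a change from none at these counts.

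Around the edge placed at 167 Mb, the 5 Mb before it held 3 OE-KDM4A summits and the 5 Mb after it 21, with no NC summit on either side. The last summit before the edge, at 166319386, was nearest to BCHE, which encodes butyrylcholinesterase. At 181 Mb the 5 Mb before the edge held 26 summits and the 5 Mb after it 8. The first summit beyond it, at 181347358, lay in SOX2-OT, the long noncoding RNA gene that surrounds SOX2.

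Protein-coding genes showed no single order with OE-KDM4A peaks. They numbered 5.68 per Mb on 3p, then 5.24, 3.71 and 7.60 on the successive levels of distal 3q, so the densest level had the fewest and the second densest the most. Across 1-Mb bins the Spearman correlation between OE-KDM4A peaks and protein-coding genes was -0.13 on 3p and 0.12 on distal 3q. NC peaks and protein-coding genes had 0.31 and 0.16. These are descriptions over 86 and 99 bins of 1 library each. In bins without a protein-coding gene the NC list had 0.0417 peaks per Mb, from 1 peak in 24 bins. In bins with more than 15 it had 0.308, from 4 peaks in 13 bins. For the OE-KDM4A list, bins were classed by no gene, 1 to 5, 6 to 15 and more than 15 genes. In this order 3p had 1.2, 0.66, 0.647 and 0.444 peaks per Mb. Distal 3q had 1.0, 2.0, 1.56 and 1.75, with no steady order. Only 9 bins of 3p and 4 of distal 3q held more than 15 genes, with 4 and 7 OE-KDM4A peaks.

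**Figure D3:**
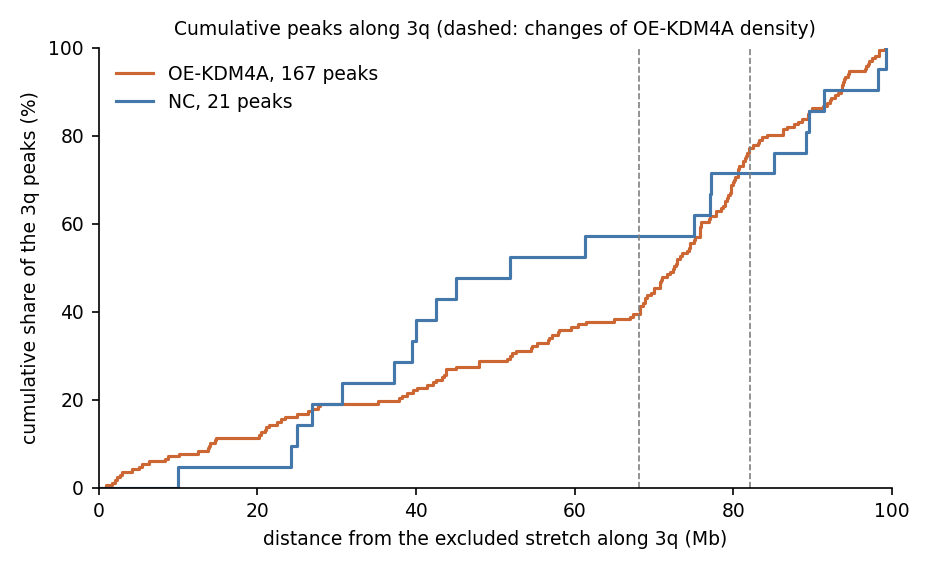
Cumulative share of the peaks of each list (vertical axis, percent) against distance along distal 3q (horizontal axis, Mb from its start), with dashed lines at the changes of OE-KDM4A density. The OE-KDM4A curve is shallow over the stretch with 0.969 peaks per Mb and steepest over that with 4.50 per Mb.

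By their medians, OE-KDM4A peaks inside the blocks were no stronger than the others. The median −log10 q was 2.66 inside (quartiles 1.85 and 3.58) and 2.99 outside (quartiles 1.85 and 4.57). The median fold enrichment was 4.69 inside and 4.72 outside. It is the ratio of ChIP to control at the summit, with a small constant added to both. The number of ChIP fragments stacked at the summit, recovered from the deposited values, had a median of 9 in both sets. Peaks of 7 to 10 fragments made up 75.4% of those inside and 76.6% of those outside, and no arm peak had fewer than 7. Summits inside the blocks had a median distance of 58.1 kb to the nearest other summit, against 315 kb elsewhere on distal 3q and 436 kb on 3p.

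Where the −log10 q reached 5 or more, 10 OE-KDM4A peaks lay on 3p and 8, 9 and 8 lay on the successive levels of distal 3q. The density of these stronger peaks was 0.116, 0.117, 0.643 and 0.464 per Mb. Beyond 167 Mb it was 5.47 times that before the edge (1.87 to 16.3), against 4.64 times for all OE-KDM4A peaks (3.23 to 6.66). The stronger peaks are a subset of those that placed the edge, so neither ratio supports it. Across 181 Mb the ratio was 0.722 (0.242 to 2.11) for the stronger peaks and 0.490 (0.319 to 0.745) for all. Of the 36 strongest OE-KDM4A arm peaks, as many as the NC list holds, 26 lay on distal 3q and 8 in the blocks.

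The recovered control background of OE-KDM4A peaks also differed along the arm and was highest on the last level. Its lowest value, 0.905 fragments, was found at 61.7% of OE-KDM4A peaks on 3p and at 63.6%, 44.4% and 23.7% of those on the successive levels of distal 3q. The median background was 0.905, 0.905, 1.01 and 1.08 fragments. Inside the blocks 39.1% of peaks were at the lowest value (27.6% to 51.6%) and outside them 56.3% (48.2% to 64.2%). Over both arms, 51.1% of OE-KDM4A peaks (44.4% to 57.8%) were at the lowest value of their list. Of NC peaks, 8.33% (1.75% to 22.5%) were at the lowest value of theirs. The part of the control background in the peak density, and in the peak numbers of the 2 lists, was not tested. Library depth and condition cannot be told apart with 1 library each.

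**Figure D4:**
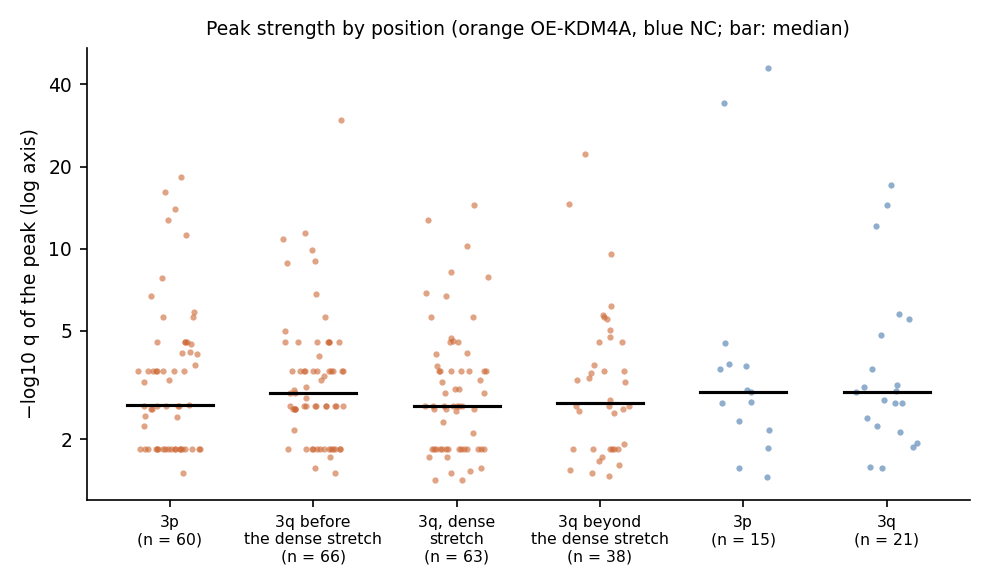
The −log10 q of each arm peak (vertical log axis) by position group, OE-KDM4A in orange and NC in blue, with a bar at each median. The OE-KDM4A medians are 2.67 on 3p and 2.95, 2.66 and 2.72 before, in and beyond the stretch from 167 to 181 Mb, and the highest values are 29.6 in OE-KDM4A and 45.8 in NC.

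The strongest OE-KDM4A peak on the arms lay in RSRC1, which encodes an arginine- and serine-rich protein linked to splicing. It ran from 158439097 to 158439312 with 15.7-fold enrichment, a −log10 q of 29.6 and 29 fragments at the summit. The next, from 195483641 to 195483801, lay in no gene and 30.7 kb from PPP1R2, a gene for an inhibitor of protein phosphatase 1, with 13.1-fold enrichment and a −log10 q of 22.2. A peak in GNB4, which encodes a G-protein beta subunit, had 9.38-fold enrichment and lay in the block from 177 to 181 Mb. SYN2, which encodes the synaptic vesicle protein synapsin II, had 9.97-fold enrichment, and ULK4, a gene of the unc-51-like kinase family, had 9.45-fold. NAALADL2 also had 9.45-fold, and CHCHD6, which encodes a protein of the mitochondrial inner membrane, had 8.92-fold. None of these 7 was overlapped by an NC peak.

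The 7 NC arm peaks whose −log10 q reached 5 were 2 in DUX4L26 and 1 each in RASA2, SIAH2, C3orf80, DIPK2A and LPP. The peak in LPP, which encodes a LIM-domain protein of focal adhesions, had 6.18-fold enrichment and lay 267 kb from the nearer gene end. The other 6 lay within 1 kb of a gene end. The remaining 3 of the 10 strongest lay 5.77 kb from TRAT1, 277 kb from CTNNB1 and within UBE2E2, with fold enrichments of 6.07, 5.86 and 5.52.

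Gene ends took a larger share of the NC list than of the OE-KDM4A list, which describes 1 library per condition and was not tested. Of the 36 NC peaks, 11 had the summit within 1 kb of a gene end, 30.6% (16.3% to 48.1%). The share over NC arm peaks of all chromosomes was 20.8%, which lies inside that interval. Without the bin from 75 to 76 Mb, which holds the NC peaks in DUX4L26, the NC share was 26.5%. Of the 227 OE-KDM4A peaks, 9 did, 3.96% (1.83% to 7.39%), beside 6.05% over all chromosome arms. For protein-coding genes alone, the NC peaks at an end numbered 0 of 15 on 3p (0% to 21.8%). On distal 3q they numbered 7 of 21, 33.3% (14.6% to 57.0%). The intervals overlap, so no difference between the arms is read from these counts.

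RASA2, which encodes a GTPase-activating protein for Ras, had the highest fold enrichment of the NC gene-end peaks, 11.6-fold with a −log10 q of 17.1 and 20 fragments. SIAH2, which encodes an E3 ubiquitin ligase, had 9.66-fold enrichment with the summit 600 bp inside its 5′ end. C3orf80 had 9.31-fold at 290 bp, and DIPK2A had 6.15-fold at 955 bp. These are the starts whose upstream windows, printed above, held 31, 21 and 22 CG dinucleotides. FOXL2, which encodes a forkhead factor of ovarian granulosa cells, had 4.83-fold enrichment 611 bp inside its 5′ end. MYLK, the myosin light chain kinase gene, had 4.44-fold 247 bp outside its 5′ end. PLXND1, which encodes a semaphorin receptor, had 4.60-fold 81 bp beyond its 3′ end. Only RASA2 among these 7 protein-coding genes had an overlapping OE-KDM4A peak.

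In the OE-KDM4A list, 4 peaks lay at an end of a protein-coding gene. DLG1, which encodes a scaffold protein of cell junctions and synapses, had 8.52-fold enrichment with 24 fragments, 331 bp inside its 5′ end. RASA2 had 7.43-fold with 18 fragments. C3orf70 had 4.50-fold 257 bp inside its 5′ end, and TMEM212 had 4.46-fold 862 bp from its 3′ end.

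**Figure D5:**
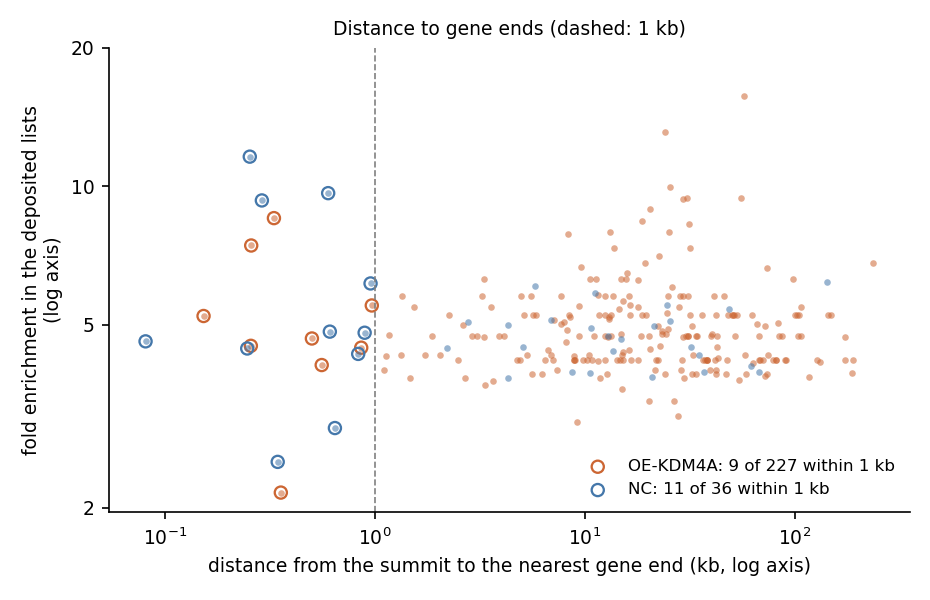
Fold enrichment of each arm peak (vertical log axis) against the distance from its summit to the nearest gene end (horizontal log axis, kb), NC in blue and OE-KDM4A in orange, with a dashed line at 1 kb. Left of the line lie 11 of 36 NC peaks and 9 of 227 OE-KDM4A peaks.

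Peaks of both lists overlapped at only 2 places on the arms. These are 5.56% of NC peaks (0.680% to 18.7%), beside 9.58% over all chromosome arms. They are 0.881% of OE-KDM4A peaks (0.107% to 3.15%), beside 2.36% over all arms. The first is the start of RASA2, with an NC peak from 141487257 to 141487404 and an OE-KDM4A peak from 141487273 to 141487404. The other is DUX4L26, a pseudogene of the DUX4 family, with an NC peak from 75669133 to 75669373 and an OE-KDM4A peak from 75669148 to 75669384. From each NC summit the nearest OE-KDM4A summit lay at a median of 199.6 kb, and 3 of 36 lay within 5 kb.

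The pair at DUX4L26 differed in kind from the other arm peaks. The NC peak stood on 353 ChIP fragments over a background of 139.7, a fold enrichment of 2.52. The OE-KDM4A peak stood on 206 fragments over 94.9, a fold of 2.16. A further NC peak in the same pseudogene had 200 fragments over 66.4. The neighbouring gene ZNF717, which encodes a zinc finger protein, held 4 OE-KDM4A peaks of up to 7.96-fold and no NC peak. FRG2C, DUX4L26 and ZNF717 belong to families with near-identical copies elsewhere in the genome, so reads could be placed among copies and these values are uncertain. Between 75 and 76 Mb lay 7 OE-KDM4A and 2 NC peaks.

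Summits fell within protein-coding gene spans for 24 of 36 NC peaks, 66.7% (49.0% to 81.4%), and for 106 of 227 OE-KDM4A peaks, 46.7% (40.1% to 53.4%). Such spans cover 48.7% of the arms. Counted by gene, with 5 kb at both ends, 32 of 1031 protein-coding genes of the arms had an NC peak, 3.10%, beside 2.46% over all chromosomes. An OE-KDM4A peak was found at 91, or 8.83%, beside 5.36% over all chromosomes. On 3p 24 of 491 genes had one, 4.89%, and on distal 3q 67 of 540, 12.4%. From 167 to 181 Mb it was 17 of 52, or 32.7%, a description, since that level was placed by OE-KDM4A counts. Genes with a peak were long in both lists. The median span was 160 kb for genes with an OE-KDM4A peak and 93.6 kb for those with an NC peak. Over all the genes it was 35.7 kb.

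Both lists had a peak at 9 of these genes: SHQ1, FRG2C, MYLK, LOC112267908, RASA2, NLGN1, LPP, CLDN16 and DLG1. Outside RASA2 and FRG2C, these were different places in or beside the same gene. In LPP the NC peak had a −log10 q of 5.53, and none of the 4 OE-KDM4A peaks exceeded 1.85.

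At least 2 OE-KDM4A peaks fell in each of 13 of the 1031 protein-coding genes of the arms, 11 of them on distal 3q. No share over all chromosomes is given for this count. No protein-coding gene had more than 1 NC peak in its span. With 36 NC peaks against 227 OE-KDM4A peaks, this is not read as a difference between the lists. NAALADL2, a gene of 1370 kb for a peptidase-like protein, held 6, with −log10 q from 1.57 to 12.7. NLGN1, which encodes the synaptic adhesion protein neuroligin 1, held 4, of up to 5.48-fold. LPP and ZNF717 also held 4 each. FGF12, GNB4 and KCNMB2 held 3 each, the last encoding a beta subunit of a calcium-activated potassium channel. DLG1, GSK3B, LEKR1, PLCH1, ROBO2 and TMEM212 held 2 each. TMEM212, of 16 kb, was the shortest of the 13.

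Genes often gained in carcinomas at 3q26 to 3q29 were counted next. Of 26 such genes, 6 had an OE-KDM4A peak: TNIK, PLD1, FNDC3B, LPP, PAK2 and DLG1. That is 23.1%, beside 12.4% of all protein-coding genes of distal 3q. By level, placed by OE-KDM4A counts, the share of all genes was 32.7% from 167 to 181 Mb and 9.92% beyond 181 Mb. The listed genes had a median span of 71.8 kb, against 40.5 kb over distal 3q. With so few genes, the count cannot be told apart from position and length. NC peaks were found at LPP and DLG1, 7.69% beside 3.70% of all protein-coding genes of distal 3q. The OE-KDM4A folds at TNIK, a kinase gene of Wnt signalling, and at PLD1, a phospholipase gene, were 4.20 and 3.91. FNDC3B had 4.41 and PAK2, a p21-activated kinase gene, 4.67. PIK3CA, the catalytic subunit gene of PI3-kinase, had no peak although it lies between 167 and 181 Mb, and its nearest OE-KDM4A peak was 55.6 kb away. MECOM and TERC, in the same stretch, had their nearest at 42.8 and 28.6 kb. SOX2, beyond it, had its nearest at 263 kb.

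The shares to set beside the next counts are those of all protein-coding genes of the arms, 8.83% with an OE-KDM4A peak and 3.10% with an NC peak, and with so few genes a list no count is read as a difference from them. Of 20 tumour suppressor and fragile-site genes of 3p, RARB and ROBO2 had an OE-KDM4A peak and FOXP1 an NC peak. Of 6 nuclear receptor genes, PPARG (4.98-fold) and RARB (4.20-fold) had an OE-KDM4A peak and none had an NC peak. Of 14 genes for cell cycle, replication and repair, only the checkpoint kinase gene ATR had an OE-KDM4A peak (3.98-fold). Of 12 genes known from endometrial cancer, ATR had an OE-KDM4A peak and FOXP1 an NC peak. None of the 7 listed genes of histone methylation and other chromatin regulation on the arms had a peak in either list.

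Neuronal adhesion and synapse genes had OE-KDM4A peaks at 7 of 25: SYN2, CACNA2D3, ROBO2, CLSTN2, NLGN1, NAALADL2 and FGF12. That is 28.0%, beside 8.83% of all protein-coding genes of the arms. The name of the list is loose, since NAALADL2, the protein-coding gene with the most OE-KDM4A peaks on the arms, encodes a peptidase-like protein. The list was chosen with earlier results of these data known. The median span over the whole list was 588 kb, far above that of all genes, so the count cannot be told apart from length. Ion channel and transporter genes had 3 of 17, or 17.6%: SCN10A, TRPC1 and KCNMB2. Zinc finger genes, a class known for H3K9me3, had 3 of 24, or 12.5%, which is near the share of all genes: ZNF385D, ZNF717 and ZNF148. NC peaks were found at 1 gene of these 3 lists, NLGN1. No peak of either list overlapped any of the 80 miRNA hairpins on the arms.

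The limits of the rule left out 3 NC and 34 OE-KDM4A peaks of chromosome 3. The nearest OE-KDM4A peak outside lay 52.5 kb beyond the 3p limit with 3.91-fold enrichment, and the nearest member 2098 kb inside it with 6.82-fold. At the distal 3q limit, the nearest outside lay at 212 kb with 4.20-fold and the nearest member at 920 kb with 4.30-fold.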

How the data were processed

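H3K9me3 ChIP-seq of Ishikawa cells gave 1 peak list per condition, in hg38. The submitters' processing notes list Trimmomatic, Bowtie 1.1.2 and MACS2 2.1.0 but no settings. Fold enrichment was deposited on a linear scale. By the formula used here to recover fragments, it is the ratio of ChIP to control at the summit with 1 added to both. At low backgrounds it is therefore smaller than the plain ratio of fragments to background. The −log10 p and −log10 q values were also deposited by the authors, and the deposited score is a whole number derived from the −log10 q. Total read counts were not used here, so depth is unknown. The input libraries were not analysed by themselves.

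Summits were counted in 1-Mb bins, and bins were also segmented into levels of constant Poisson density. Overlap meant at least 1 bp. ChIP fragments and control background at the summit were recovered from fold and −log10 p by the formulas MACS2 is known to use, which gave the deposited −log10 p within 0.001 for all arm peaks. Backgrounds up to 0.1% above a list's minimum were taken as the lowest. Gene spans came from a RefSeq table (GRCh38.p14) without strand, and strand and upstream sequence from a RefSeq promoter table of the same build. Shares have exact Clopper-Pearson intervals, and ratios the exact interval of 2 counts, at 95%. Regions of 1 library are no replicates, so no test was made.

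The text names the 10 strongest peaks of each list, regions in both lists, genes with at least 2 peaks of 1 list, genes at block edges, listed genes with a peak, gene-end NC peaks and genes whose upstream window a peak overlaps. Other genes at an end of which an OE-KDM4A peak lies, and listed genes without a peak, were picked after their values were seen. The members and gene lists were chosen with earlier results of these data known. The alternatives were other bins, block rules, limits on q and distances. The steps were tested on simulated data. The software was Python 3.11.15 with scipy 1.17.1, pandas 2.3.3, numpy 2.4.6 and matplotlib 3.10.9.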

Additional observations from a re-analysis of the deposited data

How the results depend on the processing

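Of 55 alternative values, 38 stayed within the interval of the reported value, 17 moved beyond it and none reversed. A reversal could be scored for ratios and differences of medians only, since no direction was set for shares. For differences of medians, the interval took its width from the median inside the blocks alone. With a −log10 q of at least 10 the ratio of OE-KDM4A to NC peaks was 2.60. Without the bins of the dense blocks, OE-KDM4A density on distal 3q was 1.66 times that on 3p. The share of OE-KDM4A peaks in blocks was 48.9% with at least 2 peaks per dense bin, 11.9% with chains of summits at most 0.5 Mb apart, 22.9% for a −log10 q of at least 5, and 41.0% when 2 thinner bins were bridged. The share of NC peaks in blocks was 22.2%, 0% and 16.7% under the first, the second and the last of these rules. At a −log10 q of at least 5, overlapping peaks made up 28.6% of the NC list and 5.71% of the OE-KDM4A list, and gene-end peaks 85.7% and 11.4%. Among OE-KDM4A peaks, gene ends took 10.6% within 3 kb and 1.76% for protein-coding genes alone. Gene spans held 62.6% with all genes and 54.3% of protein-coding ones at a −log10 q of at least 5. The extent of the blocks depends on the rule: bins shifted by 0.5 Mb joined the first and the second block into 1 from 166.5 to 181.5 Mb, while chains kept only 177.3 to 179.6 Mb and 191.7 to 193.5 Mb. The bridging of 2 thinner bins, the removal of the bin from 75 to 76 Mb and the equal number of peaks were chosen after seeing the data. No paired analysis was possible because each condition has 1 ChIP library. With 7 to 10 fragments at most summits and unknown depth, the number of called peaks limits every comparison between the lists.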

Other observations

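The distance from a peak's start to its summit was not spread evenly. In the NC list the most frequent distance was 18 bp, found at 130 of 1165 peaks, 11.2%. On the chromosome 3 arms it was found at 6 of 36 NC peaks, and at 5 of the 11 within 1 kb of a gene end against 1 of the other 25. The NC peaks at SIAH2, C3orf80, DIPK2A, FOXL2 and MYLK all had this distance. In the OE-KDM4A list the most frequent distance was 13 bp, found at 191 of 3785 peaks, 5.05%, and at 9 of 227 on the chromosome 3 arms. It was found at 2 of the 9 within 1 kb of a gene end, those at DLG1 and C3orf70, against 7 of the other 218. The source of these fixed distances was not tested.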
